A study of Mus musculus with 10 samples.

Results

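The receptor-mediated endocytosis genes described here are 10 of the 20206 genes listed for these mouse embryonic stem cell (ESC) lines. They were chosen by name for their place in nutrient uptake through megalin and cubilin, and not by a measured value. They comprise the receptors Lrp2 (megalin), Cubn (cubilin), Amn (amnionless) and Lrp1, the receptor chaperone Lrpap1, the adaptor Dab2, the clathrin heavy chain Cltc, and the small GTPases Rab5a, Rab7 and Rhoa. All 10 were listed once, and all 10 were among the 14354 genes whose mean over the lines was at least 10 and which were tested.

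RNA was sequenced from 10 wild-type C57BL/6 ESC lines labelled male, 5 derived from blastocysts of mothers on a low protein diet (LPD, 9% casein) and 5 from mothers on a normal protein diet (NPD, 18% casein). Mothers were 7 to 9 weeks old at mating and received the diet only until embryonic day 3.5, before the blastocysts were taken. According to the study's methods the lines came from different mothers, were derived on layers of mouse embryonic fibroblasts and were grown without them before RNA was taken. Each line came from 1 embryo and is 1 replicate of its diet, and the text names a line by its diet and the number in its label.

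Megalin and cubilin are large receptors of absorptive epithelia such as the visceral endoderm, yolk sac and proximal kidney tubule, where they capture proteins, vitamins and lipoproteins for degradation in lysosomes. Cubilin has no membrane span of its own and needs amnionless to reach the cell surface, while megalin and Lrp1 belong to 1 lipoprotein receptor family and need the chaperone Lrpap1 to fold. Dab2 joins the receptor tails to clathrin, Rab5 acts at the early endosome, Rab7 at the late endosome, and RhoA on the actin cytoskeleton.

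The values are normalized estimated counts per gene. LPD lines 4, 6 and 40 held 5841585, 12352628 and 11248926 read equivalents, meaning the summed value of the line over the value of a single read, whereas the other 7 lines held at least 20481040. The Y-linked gene Ddx3y had a value of 174 in LPD line 4 and only 7.70 in NPD line 15, against 1110 to 1493 (lowest to highest) in the other 8 lines, so both lines stood apart. Ddx3y was the only Y-linked gene checked, and the label of LPD line 4 and NPD line 15 as male was not tested further. Diet differences and relations of members to marker scores that rest on LPD lines 4, 6 and 40 or NPD line 15 are given with and without such lines. Single-gene exact permutation tests used all 10 lines. So did the correlation between the marker scores, the search for the most alike genes and the correlations of other pathway genes with Cubn. Pluripotency markers were high throughout, with Pou5f1 between 18250 and 30420 and Nanog between 5141 and 11571.

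Cubn, Amn and Dab2 varied together from line to line, and no relation of Lrp2 to them was detectable. The sequence before the RefSeq start of these 4 genes is therefore shown. Each window is from RefSeq (GRCm38.p6), runs 5′ to 3′ on the strand of the gene and ends before the annotated gene, with matches to a GATA motif in capitals. It was read at chr2:13491877-13492126 (minus strand) for Cubn, chr12:111270846-111271094 (plus strand) for Amn, chr15:6299539-6299787 (plus strand) for Dab2 and chr2:69586066-69586279 (minus strand) for Lrp2. The window of Cubn stops at 13491877, short of the annotated gene at 13491813, and the bases between them are not shown.
Cubn: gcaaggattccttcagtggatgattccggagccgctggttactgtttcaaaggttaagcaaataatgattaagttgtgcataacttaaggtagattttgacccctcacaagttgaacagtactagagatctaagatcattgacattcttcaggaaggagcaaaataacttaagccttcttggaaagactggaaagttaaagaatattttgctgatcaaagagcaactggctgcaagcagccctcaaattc
Amn: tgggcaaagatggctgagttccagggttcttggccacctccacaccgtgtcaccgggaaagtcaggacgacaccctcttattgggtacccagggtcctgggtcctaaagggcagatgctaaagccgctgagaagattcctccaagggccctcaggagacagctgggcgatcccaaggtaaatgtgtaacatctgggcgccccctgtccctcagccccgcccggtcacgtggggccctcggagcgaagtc
Dab2: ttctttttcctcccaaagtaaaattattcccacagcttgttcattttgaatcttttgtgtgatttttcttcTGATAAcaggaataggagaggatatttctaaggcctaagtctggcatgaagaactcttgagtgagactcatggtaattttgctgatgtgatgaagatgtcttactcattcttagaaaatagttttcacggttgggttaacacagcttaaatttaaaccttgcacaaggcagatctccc
Lrp2: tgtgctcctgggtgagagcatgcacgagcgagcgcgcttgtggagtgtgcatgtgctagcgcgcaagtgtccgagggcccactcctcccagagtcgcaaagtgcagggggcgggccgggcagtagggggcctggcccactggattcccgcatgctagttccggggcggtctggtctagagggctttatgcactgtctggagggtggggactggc

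The motif was searched in the spelling AGATAA, in the spelling AGATAG, in the spelling TGATAA and in the spelling TGATAG, on both strands of the whole 250 bases before a start site, of which 250, 249, 249 and 214 are shown for Cubn, Amn, Dab2 and Lrp2 since the printed stretch ends before the annotated gene. It was searched because the GATA factors Gata4 and Gata6 are among the endoderm markers used below. Of 32851 such windows in the mouse genome, 8718 (26.5%) held a match. In the 250-base windows of these 4 genes there was 1 match, TGATAA in Dab2, beginning 179 bases before its start. The stretches shown for Cubn and Dab2 held 39.6% and 36.5% G or C, and those of Amn and Lrp2 held 61.0% and 65.9%.

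Cubn, Amn and Dab2 were among the most variable genes of these lines, and they varied between the lines of each diet. Each was low in the same 3 lines, LPD line 6 and NPD lines 8 and 15, and high in LPD line 1 and NPD line 36. Over the 10 lines the highest value exceeded the lowest by 50.04 times in Cubn, 23.7 times in Amn and 21.05 times in Dab2, but by 3.07 times in Lrp2 and by 1.25 to 1.44 times in the coat and GTPase genes. In bulk RNA, fewer cells that express a gene and less of its RNA per cell cannot be told apart.

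**Figure D1:**
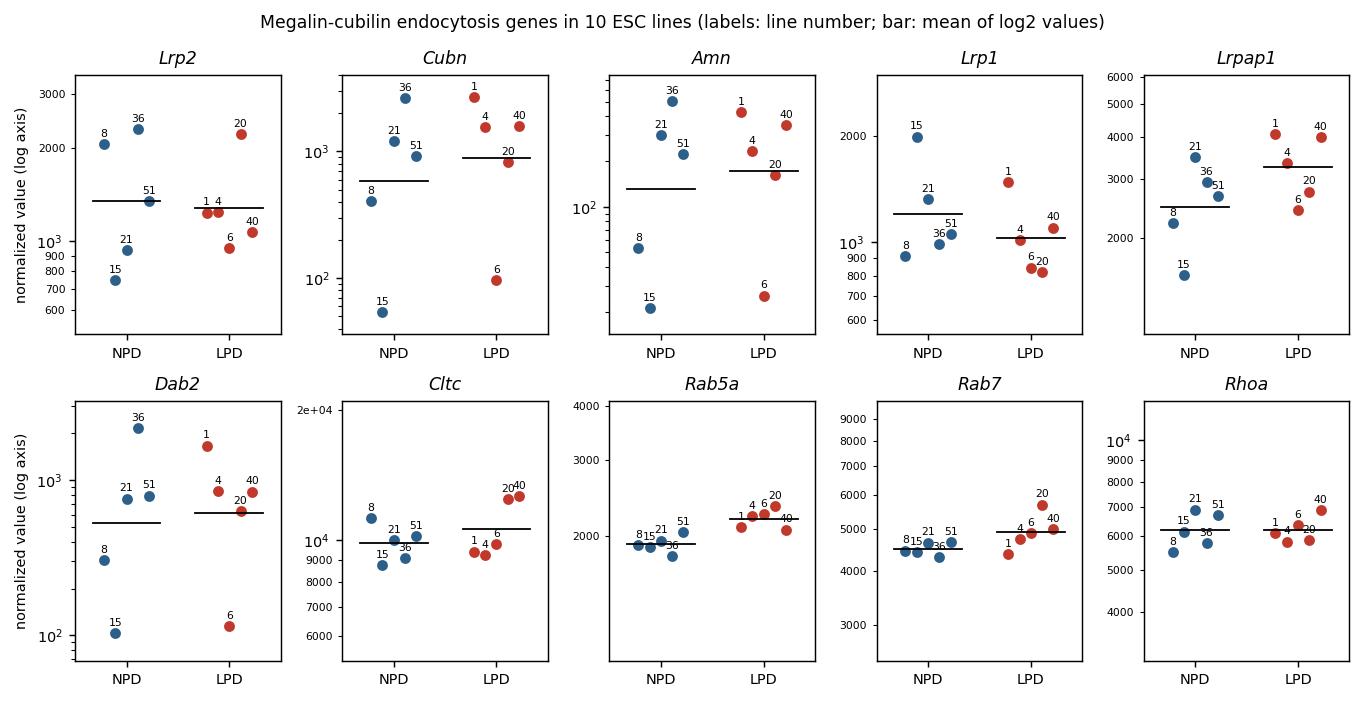
Normalized value of each of the 10 genes (log axis, ranges differ between panels) in 5 NPD and 5 LPD lines, 1 point per line with its line number and a bar at the mean of the log2 values. LPD line 6 and NPD lines 8 and 15 are the 3 lowest lines in the Cubn, Amn and Dab2 panels, and Rab5a is the panel in which the diets do not overlap.

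Cubn (ENSMUSG00000026726, chromosome 2, 13276338 to 13491813), the receptor for intrinsic factor with vitamin B12 and for many filtered proteins, had normalized values of 2696, 1547, 96.2, 829 and 1575 in LPD lines 1, 4, 6, 20 and 40. In NPD lines 8, 15, 21, 36 and 51 it had 407, 53.9, 1204, 2625 and 924. Each diet held a line near the bottom and a line near the top of this range, and the groups overlapped. LPD lines had a mean of 1349 ± 967 (SD, n = 5) and NPD lines one of 1043 ± 991 (SD, n = 5). The log2 fold change of LPD against NPD, on log2(value + 1), was 0.60 with a 95% interval of -1.59 to 2.80 (limma), which was not distinguishable from 0 at this spread (exact permutation test, two-sided, p = 0.595).

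Amn (ENSMUSG00000021278, chromosome 12, 111271095 to 111276426), the transmembrane partner of cubilin, had 424, 235, 25.7, 163 and 347 in the LPD lines, in the same order. Its values in the NPD lines were 53.3, 21.3, 298, 504 and 225. The lowest 2 of these values, in LPD line 6 and NPD line 15, stand for 18.6 and 28.1 read equivalents. The order of the lines was close to that of Cubn, and the diets overlapped. LPD lines averaged 239 ± 156 (SD, n = 5) and NPD lines 220.2 ± 196 (SD, n = 5), a log2 fold change of 0.38 with an interval of -1.53 to 2.29 (exact permutation test, p = 0.778).

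Dab2 (ENSMUSG00000022150, chromosome 15, 6299788 to 6440712), the endocytic adaptor of megalin, had 1672, 852, 114, 633 and 843 in the LPD lines. In the NPD lines it had 306, 103, 761, 2165 and 795. The same lines were low and high as for the cubilin pair, with overlapping diets. Means were 823 ± 561 (SD, n = 5) and 826 ± 805 (SD, n = 5), and the log2 fold change was 0.21 with an interval of -1.48 to 1.91 (exact permutation test, p = 0.881). Without NPD line 15 the log2 fold changes of Cubn, Amn and Dab2 were -0.25, -0.27 and -0.37, and without LPD line 6 they were 1.398, 1.05 and 0.82, so that 1 line set the direction of each.

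Lrp2 (ENSMUSG00000027070, chromosome 2, 69424340 to 69586065), the multiligand receptor megalin, had 1239, 1245, 949, 2223 and 1072 in the LPD lines. Values in the NPD lines were 2062, 750.5, 938, 2305 and 1349. Here LPD line 20 and NPD lines 8 and 36 were high, and LPD line 6 lay close to NPD line 21, with overlapping diets. LPD lines averaged 1345 ± 506 (SD, n = 5), NPD lines 1481 ± 682 (SD, n = 5). Its log2 fold change was -0.07, with an interval of -0.74 to 0.59 (exact permutation test, p = 0.857), and it was 0.03, 0.08 and 0.12 without LPD line 6, NPD line 8 and NPD line 36 in turn.

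Lrp1 (ENSMUSG00000040249, chromosome 10, 127538161 to 127621148), a receptor for protease complexes and apolipoprotein E, had 1477, 1011, 845, 818 and 1097 in the LPD lines. In the NPD lines it had 911, 1989, 1324, 985 and 1049. NPD line 15, the lowest line for Cubn, was the highest for Lrp1, and the diets overlapped. The log2 fold change was -0.23 with an interval of -0.69 to 0.24 (exact permutation test, p = 0.421), but -0.04 when NPD line 15 was left out.

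Lrpap1 (ENSMUSG00000029103, chromosome 5, 35091501 to 35105766), the chaperone that keeps ligands off newly made members of the lipoprotein receptor family, had 4075, 3345, 2415, 2746 and 3996 in the LPD lines. The NPD lines had 2213, 1552, 3478, 2937 and 2665. LPD lines 1 and 40 lay above every NPD line, and the other 3 LPD lines overlapped with them. Means were 3315 ± 738 (SD, n = 5) and 2569 ± 730.1 (SD, n = 5), a log2 fold change of 0.39 with an interval of -0.06 to 0.84 (exact permutation test, p = 0.167). Leaving out NPD line 15 gave 0.22, and leaving out NPD line 21 gave 0.51.

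Rab5a (ENSMUSG00000017831, chromosome 17, 53479234 to 53507680), which directs fusion of early endosomes, was the 1 member whose diets did not overlap. It had 2095, 2221, 2246, 2351 and 2069.6 in the LPD lines and 1905, 1885, 1951, 1799.9 and 2039 in the NPD lines. The lowest LPD line was still above the highest NPD line, with the gap between LPD line 40 and NPD line 51. The LPD mean of 2197 ± 115 (SD, n = 5) stood against an NPD mean of 1916 ± 87.9 (SD, n = 5), which is 1.15-fold, or 0.20 on the log2 scale (standard error 0.07, interval 0.04 to 0.35). This is the smallest p that 5 lines against 5 allow (exact permutation test, two-sided, p = 0.00794). Over all genes tested the adjusted p was 0.860 (limma, Benjamini-Hochberg), so the difference did not pass (0.575 to 1.00 over the alternatives tried). The unadjusted p was 0.0177, and it was 0.0621 without LPD line 4 and NPD line 15 and 0.0663 without LPD lines 4, 6 and 40 (limma), with log2 fold changes of 0.19 and 0.21. Pp2d1, an antisense gene that overlaps the end of Rab5a, had a mean of 3.16 in LPD and 3.51 in NPD.

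Rab7 (ENSMUSG00000079477, chromosome 6, 87999106 to 88045270), the GTPase of late endosomes, had 4378, 4749, 4889, 5699 and 4993 in the LPD lines. In the NPD lines it had 4459, 4422, 4655, 4314 and 4674. In 4 of 5 LPD lines the value was above every NPD line, and LPD line 1 overlapped with them. Means were 4942 ± 483 (SD, n = 5) and 4505 ± 155 (SD, n = 5), a log2 fold change of 0.13 with an interval of -0.04 to 0.30 (exact permutation test, p = 0.0635).

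Cltc (ENSMUSG00000047126, chromosome 11, 86694351 to 86757565), the heavy chain of the clathrin coat, had 9391, 9229, 9771, 12436 and 12604 in the LPD lines, and 11233.5, 8737, 10005, 9067 and 10191 in the NPD lines. LPD lines 20 and 40 were higher than all others, and the remaining lines overlapped. The log2 fold change was 0.11 with an interval of -0.14 to 0.35 (exact permutation test, p = 0.357). Rhoa (ENSMUSG00000007815, chromosome 9, 108306129 to 108337934), a regulator of actin and contractility, had 5813 to 6876 in the LPD lines, with a median of 6082, and 5500.1 to 6900.1 in the NPD lines, with a median of 6133. The means of the diets differed by less than the spread between lines, at 6199 ± 436 (SD, n = 5) and 6199 ± 599 (SD, n = 5), and the interval of the log2 fold change was -0.18 to 0.19. Rhoa overlaps Tcta on the other strand, which had means of 90.02 in LPD and 96.2 in NPD.

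Across the 10 genes, 1 (Rab5a, higher in LPD) had an unadjusted p under 0.05 (limma), where 721 or 5.02% of all genes tested had one, 2.84% with LPD higher and 2.18% with LPD lower, and 0 had an adjusted p under 0.1, as did 0 of all genes tested. The count of 1 in 10 is close to this background. The share of these 721 genes with LPD higher was 56.6%, it was 40.2% of the 734 genes under 0.05 after lines were rescaled to equal totals, and Rab5a was higher under both scalings. Groups that did not overlap with LPD higher were found for 1 of 10 members, against 0.523% of all genes tested, or 1.02% in either direction and 0.495% with LPD lower. A log2 fold change above 0 was seen in 8 of 10 members and 50.5% of all genes. Rhoa, 1 of the 8, fell on the other side of 0 when lines were rescaled or quantile normalized. Cubn, Amn and Dab2, also among the 8, fell to -0.25, -0.27 and -0.37 without NPD line 15. Their values varied together over the lines (r = 0.98 for each pair), so they do not count separately. The median log2 fold change was 0.16 over the 10 genes and 0.00 over all genes tested. By exact permutation test the next lowest p values were 0.0635 for Rab7 and 0.167 for Lrpap1.

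**Figure D2:**
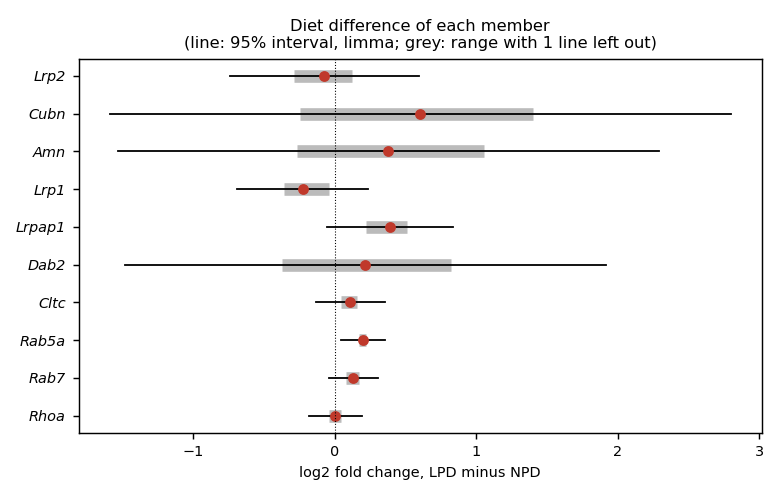
Log2 fold change of LPD minus NPD for each gene (points), with the 95% interval from limma (black lines) and the range when each of the 10 lines is left out in turn (grey bars). The intervals of Cubn, Amn and Dab2 are widest and their grey bars cross 0, while the bar of Rab5a stays between 0.17 and 0.22.

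The members differed widely in their spread. On the log2 scale the SD over all lines was 1.92 for Cubn, 1.65 for Amn and 1.47 for Dab2, and only 0.641%, 1.15% and 1.62% of the genes tested had a larger one. Lrp2, at 0.56, was exceeded by 17.6% of genes, Lrpap1, at 0.42, by 28.4%, and Lrp1, at 0.40, by 31.2%. The SD of Cltc was 0.19, of Rab5a and Rab7 0.12 each and of Rhoa 0.11, all under the median of 0.27 over all genes tested. Each of them thus varied less between lines than most genes tested, though they were not set against genes of a similar level.

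Levels between genes were set side by side as the mean value per kilobase of the longest coding transcript. Rhoa stood highest with 2822 ± 225 (SD, n = 10), followed by Rab7 with 2188 ± 189.6, Cltc with 1575 ± 211, Lrpap1 with 987 ± 267 and Rab5a with 869 ± 74.7 per kilobase. Dab2 followed at 177 ± 140.3, Amn at 135 ± 98.3, Cubn at 106 ± 83.2, Lrp2 at 91.4 ± 36.9 and Lrp1 at 77.3 ± 24.1 per kilobase. The last 5 genes did not differ from their neighbours in this order beyond the spread between lines, nor did Lrpap1 from Rab5a. Megalin, cubilin and amnionless were thus at the lower end of the members per length, and every coat or GTPase gene was above them in all lines.

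The ratio of the partners Cubn and Amn, in normalized values, lay between 2.53 in NPD line 15 and 7.65 in NPD line 8, with a log2 SD of 0.46 over the 10 lines. The ratio of Cubn to Lrp2 lay between 0.0718 in NPD line 15 and 2.18 in LPD line 1, with a log2 SD of 1.74. Cubn and Amn therefore kept their proportion within 3.02 times while Cubn and Lrp2, which bind each other at the cell surface, differed in theirs by 30.3 times.

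All 45 pairs of members were compared over the 10 lines, and 7 pairs had an adjusted p under 0.05 (permutation test with 100000 resamples, Benjamini-Hochberg over the 45 pairs). This comparison of pairs was added after the values were seen. Cubn with Dab2 had Pearson's r = 0.98 and Spearman's rho = 0.96, Amn with Dab2 had r = 0.98 and rho = 0.94, and Cubn with Amn had r = 0.98 and rho = 0.98 (permutation tests, adjusted p = 3e-04 for each r, and 0.00225, 0.0039 and 0.00135 for rho). Without NPD line 15 and LPD line 6, the 2 lines farthest from the median, r was 0.96, 0.92 and 0.95 for these pairs, so the relation did not rest on those lines. Lrpap1 followed more loosely, with r = 0.86 to Cubn, 0.85 to Amn and 0.79 to Dab2 (permutation tests, adjusted p = 0.00846, 0.00846 and 0.0417). Its rho was 0.89, 0.85 and 0.77 (permutation tests, adjusted p = 0.0128, 0.0248 and 0.0926), so the rho with Dab2 did not pass, and r was 0.77 for Cubn and Amn without NPD line 15 and LPD line 6, and 0.57 for Dab2 without NPD line 15 and LPD line 1, the 2 farthest in Lrpap1.

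Lrp2 had r = 0.47 and rho = 0.31 with Cubn, r = 0.35 and rho = 0.32 with Amn, and r = 0.49 and rho = 0.45 with Dab2, none of which passed (permutation tests, adjusted p = 0.550, 0.8285 and 0.530 for r, and 0.845, 0.845 and 0.665 for rho). Rab5a and Rab7 had r = 0.79 and rho = 0.76 (permutation tests, adjusted p = 0.0268 for r and 0.0989 for rho), but r was 0.58 without LPD line 20 and NPD line 36. No relation of these GTPases to the group around cubilin was detectable, with r between -0.10 and 0.00 for Rab5a and Rab7 with Cubn, Amn and Dab2.

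**Figure D3:**
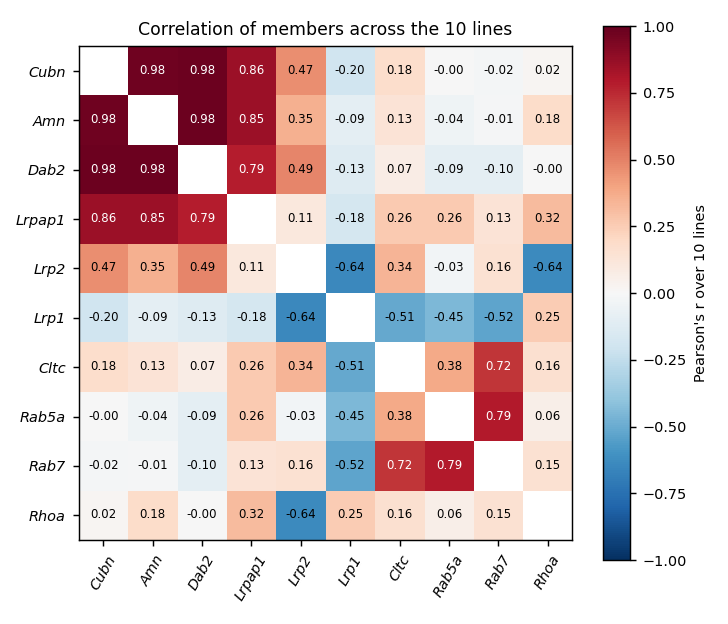
Pearson's r over the 10 lines for each pair of the 10 genes, on log2(value + 1), from -1 (blue) to 1 (red). Cubn, Amn and Dab2 form a block at 0.98 with Lrpap1 beside it at 0.79 to 0.86, and Lrp2 lies outside it at 0.35 to 0.49.

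As a description of likeness, the 3 genes with the highest r over the 10 lines were named for the 4 genes Lrp2, Cubn, Amn and Dab2, among 10331 genes with a mean of at least 100. For Cubn they were Col4a1, a basement membrane collagen chain, at 0.982, Hkdc1, a hexokinase family member, at 0.982, and Dab2 at 0.982. Col4a1 ranged from 1269 in NPD line 15 to 10299 in LPD line 1. For Amn they were Srgn, the proteoglycan core protein serglycin, at 0.992, P4ha2, a collagen prolyl hydroxylase subunit, at 0.989, and Dab2 at 0.978, with Cubn in place 4. For Dab2 they were Cubn, Amn and P4ha2 (r = 0.9754). Cubn, Amn and Dab2 were thus among each other's closest genes.

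The nearest genes of Lrp2 were others. They were Rpa1, a subunit of the single-stranded DNA binding protein, with r = 0.916, Acly, the ATP citrate lyase of fatty acid and cholesterol supply, with 0.916, and Cdk5rap2, a centrosomal protein, with 0.912. Cubn held place 1314 and Dab2 place 1188 in the order of genes by likeness to Lrp2. The lines in which Lrp2 was highest were also those of highest Cdk5rap2, LPD line 20 at 1809 and NPD line 36 at 1681, against 692 to 1190 (lowest to highest) in the other 8 lines.

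Since megalin, cubilin and Dab2 are known from extraembryonic endoderm, each member was set against a score for it, the mean of log2(value + 1) of Gata4, Gata6, Sox17, Sox7, Foxa2 and Pdgfra. The score was 8.54, 7.56, 6.32, 7.61 and 8.51 in the LPD lines and 6.72, 4.75, 7.69, 8.40 and 8.04 in the NPD lines. It was lowest in NPD line 15, LPD line 6 and NPD line 8, the 3 lines in which Cubn, Amn and Dab2 were lowest, and it did not separate the diets (difference 0.59, exact permutation test, p = 0.50). Gata4 itself ranged from 67.6 in NPD line 15 to 1079 in NPD line 36.

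Of the 20 relations of the 10 members with the endoderm score and a fibroblast score, 8 had an adjusted p under 0.05, 4 with each score. With the endoderm score, r was 0.948 for Cubn, 0.939 for Amn and 0.923 for Dab2, and rho was 0.903, 0.903 and 0.830 (permutation tests, adjusted p = 5.33e-04 for each r, and 0.0071, 0.0071 and 0.0245 for rho). Without the 2 lines farthest from the median score, NPD line 15 and LPD line 6, r was 0.861, 0.917 and 0.855. A step of 1 in the score went with a step of 1.53 in Cubn, 1.30 in Amn and 1.14 in Dab2 on the log2 scale.

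For Lrpap1 r was 0.893 and rho 0.830 (permutation tests, adjusted p = 0.0041 and 0.0245), with 0.727 without those 2 lines, and without NPD line 15 alone r was 0.762 and was no longer called (adjusted p = 0.0820). Lrp2 had r = 0.435 and rho = 0.297 (permutation tests, adjusted p = 0.424 and 0.614), which was -0.300 without the same 2 lines, so no relation of megalin to the endoderm score was detectable. None of Lrp1, Cltc, Rab5a, Rab7 and Rhoa passed, with r between -0.333 and 0.312. When the diet means were subtracted, a check chosen after the data were seen, 8 relations were again called. The count was 5 without LPD line 6, 5 without NPD line 8 and 3 without NPD line 15, and these 3 were the relations of Cubn, Amn and Dab2 with the endoderm score.

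**Figure D4:**
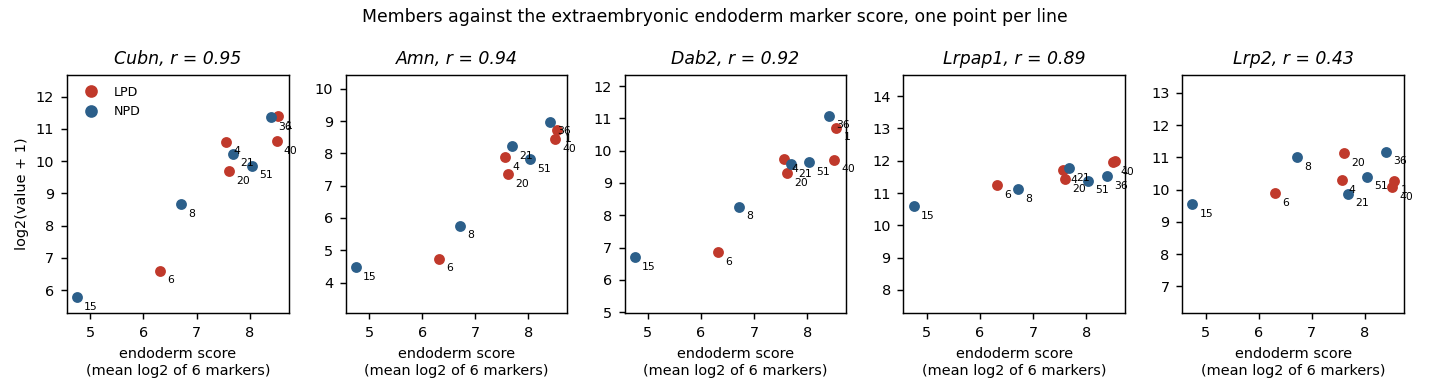
Log2(value + 1) of 5 members against the endoderm score (mean log2(value + 1) of 6 markers), 1 point per line with its number, LPD in red and NPD in blue, and the same height of axis in each panel. Cubn, Amn and Dab2 climb with the score through lines of both diets, Lrpap1 by a smaller step, and Lrp2 shows no slope beyond NPD line 15.

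The defining markers of this cell type were present unevenly. Of the 16 markers on the longer extraembryonic endoderm list, the secreted products of mature visceral endoderm were at or near 0, with Ttr at most 8.71, Afp at most 6.59 and Apoa1 at most 3.90 in any line. Foxa2 was listed at 0 in NPD line 15 and at 20.2 to 137 in the other lines. The summed value of the list was 18416 to 53439 in the LPD lines and 15326 to 38479 in the NPD lines, most of it from basement membrane genes such as Sparc, which had 10367 to 20403. Whether a share of endoderm-like cells had a part in the values of Cubn, Amn and Dab2 was not tested.

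A score of fibroblast markers (Col1a1, Col1a2, Col3a1, Lum and Thy1) went the other way, with r = -0.903 to the endoderm score over all 10 lines (rho = -0.697, permutation tests, p = 0.00209 for r and 0.0295 for rho). This r is not given without NPD line 15 and LPD line 6, and how far it rests on them was not tested. These lines had the highest fibroblast scores, 9.24 and 7.33, and the lowest endoderm scores, 4.75 and 6.32. NPD line 36 had an endoderm score of 8.40 together with a fibroblast score of 6.12. Lum was 111 in NPD line 15 and at most 1.39 in any other line, so its mean of 11.4 reached 10 only through that line. Dcn and Postn, with means of 6.09 and 6.74, were left out of the score. The r of the fibroblast score was -0.845 with Cubn, -0.831 with Amn, -0.841 with Lrpap1 and -0.782 with Dab2 (permutation tests, adjusted p = 0.0122, 0.0122, 0.0122 and 0.0188). The rho of these relations, between -0.552 and -0.455, did not pass, and without NPD line 15 and LPD line 6 r fell to between -0.548 and -0.211, so they rested on those lines. Col1a1 was at 2709 in NPD line 15, 1704 in LPD line 6 and 1016 in NPD line 8, and at 131 to 534 in the other 7 lines. The defining fibroblast markers Dcn and Postn were at most 33.5 and 25.6 in any line, and the summed value of the 12 fibroblast markers was 1204 to 4416 in LPD and 1118 to 7198 in NPD. On that list Col5a1, Pdgfrb and S100a4 were also highest in NPD line 15, LPD line 6 and NPD line 8. Fbln1 was not, at 760, 461 and 520 in these lines, and Twist1 was highest in LPD line 20, at 485. The same 3 lines had the highest sums of 9 trophectoderm markers, 11052 in LPD line 6, 6647 in NPD line 15 and 6605 in NPD line 8, against 3160.0 to 5013 (lowest to highest) in the other 7 lines. Most of each sum came from Krt8, Krt18 and Tfap2c, and Krt7, Krt8 and Krt18 were highest in these 3 lines. Tfap2c was not, at 2030 in LPD line 6 against 3116 in LPD line 4. Nor was Hand1, at 75.4 and 114 in the same LPD lines, or Gata3, at 160 in NPD line 15 against 246 in LPD line 20. Cdx2 did not follow, at 29.2, 9.11 and 38.3 in LPD line 6 and NPD lines 15 and 8, and 97.9 in LPD line 20. Elf5 was at most 6.18 in any line, and Eomes was 245 to 412 over the lines. The part of fibroblast or trophectoderm markers in the low Cubn, Amn and Dab2 values of LPD line 6 and NPD lines 8 and 15 was not tested.

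The rest of the pathway was taken from lists of 173 genes, of which 164 were tested. At an unadjusted p under 0.05, 5 were higher and 0 lower in LPD, which is 3.05% against 5.02% of all genes, and 0 passed adjustment (limma). The median log2 fold change of the 164 genes was 0.04. The lists of receptor partners, early endosome and Rab5 regulators, recycling and retromer, late endosome and Rab7 regulators, and lysosomal proteases and proton pump held 0 such genes.

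Among the 11 genes of the lipoprotein receptor family list that were tested, 2 had an unadjusted p under 0.05. Vldlr, the receptor for very low density lipoprotein, had 90.1, 162, 119, 109.6 and 60.3 in the LPD lines and 86.4, 64.8, 70.3, 70.5 and 34.3 in the NPD lines, a log2 fold change of 0.71 (exact permutation test, p = 0.0635). In 4 of 5 LPD lines Vldlr lay above every NPD line, and LPD line 40 overlapped with them. It was no longer under an unadjusted p of 0.05 (limma) without LPD line 4, 6 or 20 or NPD line 51, with log2 fold changes of 0.55, 0.66, 0.69 and 0.50, nor without LPD line 4 and NPD line 15 (0.56) or LPD lines 4, 6 and 40 (0.66). The Wnt co-receptors of the family, Lrp6 and Lrp5, had log2 fold changes of 0.21 and 0.05.

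Of the 31 clathrin and AP2 genes tested, 1 had an unadjusted p under 0.05, Dnm1, a dynamin that severs coated vesicles, at 312 ± 60.2 (SD, n = 5) for LPD against 229.9 ± 21.8 (SD, n = 5) for NPD, with a log2 fold change of 0.42 (exact permutation test, p = 0.0317). Of the 21 genes around RhoA there was also 1, Rhob, an endosomal relative of Rhoa. It had 1510.2, 1437, 1343, 776 and 783 in the LPD lines and 697, 864, 636, 822 and 687 in the NPD lines. LPD lines 1, 4 and 6 lay above every NPD line, while lines 20 and 40 overlapped with them, for a log2 fold change of 0.61 (exact permutation test, p = 0.0476). Rhoa itself had a log2 fold change of 0.00.

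Among 14 ligands of megalin and cubilin that were tested, 1 had an unadjusted p under 0.05. Trf, the iron carrier transferrin and a cubilin ligand, had 390.3, 469, 182, 474 and 455 in the LPD lines and 351, 158, 128, 194 and 270.0 in the NPD lines, a log2 fold change of 0.85 (exact permutation test, p = 0.0635). All LPD lines but line 6 were above every NPD line. Without LPD line 4 and NPD line 15 the log2 fold change was 0.67 and its unadjusted p was 0.0845 (limma), no longer under 0.05. The genes of the receptor folding and partner list with the highest means were Hsp90b1, an endoplasmic reticulum chaperone, Slc9a3r1, a scaffold of apical membranes, and Mesd, a chaperone of the lipoprotein receptor family. Their log2 fold changes were 0.10, 0.06 and -0.04.

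Some of these pathway genes varied with cubilin and others against it, which is given as a description over the 10 lines. An r of at least 0.8 with Cubn was reached by 3 of the 164 genes (1.83%), against 207 of the 14353 genes tested other than Cubn (1.44%), which include the 164. An r of -0.8 or lower was reached by 5 of the 164 (3.05%), against 140 of the 14353 (0.9754%). All 8 are named here after their values were seen. Clu, the secreted chaperone clusterin and a megalin ligand, had r = 0.911 and ranged from 226 in NPD line 15 to 1781 in LPD line 1. Lgmn, the lysosomal protease legumain, had r = 0.904 and ranged from 978 to 2965, and Myo6, a motor of endocytic vesicles, had r = 0.853 and ranged from 204 to 485. On the other side were Atp6v0a2 (r = -0.880) and Atp6ap1 (r = -0.866), a subunit and an accessory protein of the proton pump, Ap2b1 (r = -0.867), a subunit of the AP2 adaptor, Rin3 (r = -0.862), an exchange factor for Rab5, and Lamp2 (r = -0.806), a lysosomal membrane protein. Ap2b1 ranged from 2900.2 to 3929.5 over the lines and Rin3 from 78.6 to 269. These complexes did not vary against Cubn as a whole. The other listed proton pump genes had r from -0.657 (Atp6ap2) to 0.488 (Atp6v0a1), and the other AP2 subunits from -0.325 (Ap2m1) to 0.537 (Ap2a1).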

How the data were processed

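RNA sequencing of 10 ESC lines was analysed, 5 from LPD and 5 from NPD mothers. The authors trimmed reads with cutadapt, quantified GRCm38 transcripts with Salmon and tested transcripts with Sleuth v0.30.0. The authors deposited 1 table whose signal is a Salmon estimated count summed per gene and, by the table's title, scaled by DESeq2. How transcripts were summed and whether strand was used are not given in the sources used here. The table has 0 columns of unmapped lines.

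The members, gene lists and tests were chosen with earlier results of these data known. Values were taken as log2(value + 1). A mean of at least 10 was required, and the 14354 genes left were compared in limma 3.58.1 (R 4.3.3) without covariates, using eBayes with trend and Benjamini-Hochberg adjustment, and single genes also by two-sided exact permutation over the 252 assignments of 5 and 5 lines. A fold change on this scale understates that of low genes. Intervals are limma's at 95%. With 10 lines, the p-values of diet differences set the difference against the spread between lines. The value of 1 read in each line was estimated from low values of 4269 genes with 1 annotated transcript, within a tolerance of 0.15. Positions and lengths are those of GRCm38. Relations over lines were tested with 100000 permutations, adjusted over 20 relations or 45 pairs, the pairs being chosen after seeing the data.

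Genes named were the 10 members, the pathway genes with an unadjusted p under 0.05, the 3 highest in mean of the lipoprotein receptor family and of the receptor partners, and the 3 genes most like Lrp2, Cubn, Amn and Dab2. Of these, 1 is not reported here, though it remains in the counts. Alternatives were pseudocounts of 0.5 and 10, no filter or a mean of at least 100, rescaling, quantile normalization, no trend, array weights, an exact Mann-Whitney test and lines left out. Subtracting diet means was chosen after seeing the data. The limma step was tested on simulated data. Other steps ran in Python 3.11.15 (scipy 1.17.1, pandas 2.3.3, numpy 2.4.6, figures in matplotlib 3.10.9).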

Additional observations from a re-analysis of the deposited data

Results flagged for a closer look

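Of 44 groups of 5 lines examined for a line far from the others (the 10 members and the other named genes in each diet, and the marker scores), 1 was found, and chance flags about 1 in 20 such groups. Trf, the gene of transferrin, was at 182 in LPD line 6, where the other LPD lines had 390.3 to 474. Without this line its log2 fold change was 1.11 in place of 0.85. Without LPD line 4 and NPD line 15 it was 0.67.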

How the results depend on the processing

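No paired analysis was possible because the diets share no line numbers. The count of all genes at an unadjusted p under 0.05, 721, lay between 549 and 1021 over the 20 alternatives. The count at an adjusted p under 0.1 (limma), 0 in the comparison reported, was 1 with array weights and 6 without LPD lines 4, 6 and 40, and between 0 and 40 with each line left out, 40 being without LPD line 40. None of these calls was a member. The count of members at an unadjusted p under 0.05, 1, was 0 without LPD line 4 and NPD line 15, 0 without LPD lines 4, 6 and 40, and between 1 and 2 with each line left out, the other member being Lrpap1 without LPD line 6 (log2 fold change 0.50, limma) or NPD line 21 (0.51, limma). Without LPD line 4 and NPD line 15 the log2 fold changes of Cubn, Amn and Dab2 turned to -0.45, -0.38 and -0.49. That of Dab2 was also -0.15 without LPD line 1, and that of Lrp2 was 0.30 without LPD lines 4, 6 and 40. Left out 1 at a time, lines gave -0.29 to 0.12 for Lrp2, -0.25 to 1.398 for Cubn, -0.27 to 1.05 for Amn, -0.37 to 0.82 for Dab2, -0.0391 to 0.0427 for Rhoa, -0.0256 to 0.134 for Lrp5 and -0.102 to 0.0319 for Mesd. Rhoa, 0.00 in the comparison reported, was -0.0315 when rescaled, -0.0383 with quantile normalization, -0.0262 with array weights and -0.0486 without LPD lines 4, 6 and 40, where Slc9a3r1 was -0.0122. Cltc, Lrp1, Lrpap1, Rab5a and Rab7 kept their direction under the 21 alternatives run for each. The count of relations with marker scores, 8, was between 3 and 8 with each line left out. With each line left out, r with the endoderm score ran from -0.52 to 0.61 for Lrp1, -0.0284 to 0.45 for Cltc, -0.27 to 0.33 for Rab5a and -0.18 to 0.24 for Rab7, and r with the fibroblast score from -0.48 to 0.0680 for Lrp2 and -0.54 to 0.55 for Lrp1, each turning without NPD line 15. With diet means subtracted it was -0.20 for Rab5a and -0.0581 for Rab7 with the endoderm score, and with quantile normalization it was 0.0119 for Rhoa with the fibroblast score. None of the values that turned passed its test, and the cause of each turn was not tested. The lower depth of LPD lines 4, 6 and 40 limits the precision of low values such as those of Amn, and counts of reads per transcript were not used here.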
